A study of Mus musculus with 20 samples.

Results

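The interferon-stimulated genes were 49 named genes, found by gene name among the 25719 rows of a count table from mouse keratinocytes. All 49 were present, and 33 of them passed the filter on low counts that kept 12424 genes in all. The other 16 (Isg15, Ifit1, Ifit2, Ifit3, Ifit3b, Oasl1, Oas2, Mx1, Mx2, Rsad2, Ifi44, Ifi47, Rtp4, Zbp1, Gbp3 and Samd9l) had too few reads for the test and are given as reads. Members with close relatives (the Oas1, Oasl, Ifit3, Gbp, Mx and Ifi27 families) may share reads with them, and how reads that fit several genes were counted is not given in the sources used here.

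Interferons are secreted proteins that cells release when they sense viral or misplaced nucleic acid, and keratinocytes both make and respond to them. Type I and type III interferons bind receptors whose Janus kinases activate STAT2, which joins IRF9 to bind the interferon-stimulated response element (ISRE) of target genes. Interferon gamma instead acts through the gamma-activated site (GAS), and it induces IRF1 and many guanylate-binding and immunity-related GTPases.

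RNA was sequenced from keratinocytes sorted from ear and dorsal skin of 20 mice, 5 in each of 4 groups, to ask how loss of glucocorticoid synthesis in skin differs when it is induced locally or systemically. Every mouse carried floxed Cyp11b1 alleles (Cyp11b1 L2/L2), and Cyp11b1 encodes the enzyme of the last step of corticosterone synthesis. The knockout mice (cKO) also carried K14-CreERTam, a Cre recombinase that tamoxifen switches on, expressed from the K14 promoter, which is active in basal keratinocytes, while the controls were littermates without Cre. All mice, controls included, received tamoxifen on 5 days and were sampled on day 6. Topical groups had 20 µl on the ear and 100 µl on the back after dry shaving, and systemic groups had intraperitoneal injections of 100 µl at 10 mg/ml. Mice are named by group and by the number in their sample label.

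Library totals ran from 11.6 to 50.1 M counts, and libraries of 1 group correlated across genes at r = 0.932 to 0.986 (Pearson, log2 CPM). Levels are given as CPM, counts per M of the scaled library total. The targeted gene, Cyp11b1 (ENSMUSG00000075604), had 9 reads summed over the topical controls, 7 over the topical cKO, 2 over the systemic controls and 4 over the systemic cKO mice, too few to check the labels. Keratinocyte markers (6 genes, 6 tested) summed to 88180 to 117400 CPM in every library, and markers of epidermal immune cells (8 genes, 3 tested) to 3.44 to 9.06 CPM, with Ptprc at a group mean of at most 0.041 CPM. In bulk samples, fewer cells of a type and less RNA per cell cannot be told apart. Predicted genes that resemble satellite repeats summed to 79.4 CPM or more in all 5 systemic controls and in systemic cKO mouse 2 and to at most 42.5 CPM in the other 14 libraries. The systemic comparison of genotypes and the comparison of controls between routes thus set groups against each other that also differ in this respect. Sex was read from Y-linked genes: females were topical control mice 3 and 7, topical cKO mice 3, 4 and 7, systemic control mice 4 and 5, and systemic cKO mice 2, 5 and 7.

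The upstream sequences of 4 members are shown with their matches to the core of the element through which type I interferon acts. Each gives the 250 bases before the start of the gene, 5′ to 3′ on the strand of the gene, from RefSeq on GRCm38.p6, and capitals mark matches to the ISRE core, searched as GAAA, any 2 bases, and again GAAA. Isg15 lies at chr4:156200819-156201068, Oas1a at chr5:120907526-120907775, Bst2 at chr8:71537473-71537722 and Lgals3bp at chr11:118401960-118402209, all on the minus strand.
Isg15: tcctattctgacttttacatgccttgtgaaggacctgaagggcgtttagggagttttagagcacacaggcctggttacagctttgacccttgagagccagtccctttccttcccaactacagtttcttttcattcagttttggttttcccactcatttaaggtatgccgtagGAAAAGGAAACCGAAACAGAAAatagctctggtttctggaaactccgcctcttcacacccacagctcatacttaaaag
Oas1a: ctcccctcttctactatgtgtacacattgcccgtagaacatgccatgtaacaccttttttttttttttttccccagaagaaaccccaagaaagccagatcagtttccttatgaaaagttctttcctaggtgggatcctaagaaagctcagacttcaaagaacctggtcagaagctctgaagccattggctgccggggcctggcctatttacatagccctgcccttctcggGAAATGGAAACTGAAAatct
Bst2: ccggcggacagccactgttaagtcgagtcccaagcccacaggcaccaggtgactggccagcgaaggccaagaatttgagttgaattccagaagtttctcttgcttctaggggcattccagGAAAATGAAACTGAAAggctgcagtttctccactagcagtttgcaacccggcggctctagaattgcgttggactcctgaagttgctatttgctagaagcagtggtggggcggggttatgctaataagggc
Lgals3bp: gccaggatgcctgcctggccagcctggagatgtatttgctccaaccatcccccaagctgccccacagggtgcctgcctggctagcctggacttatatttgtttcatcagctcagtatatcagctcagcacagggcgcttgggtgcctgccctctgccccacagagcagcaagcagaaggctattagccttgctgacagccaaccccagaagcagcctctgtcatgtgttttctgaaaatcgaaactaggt

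Isg15 held 3 overlapping matches, Oas1a and Bst2 held 2 each, and these exact letters did not occur in the window of Lgals3bp, which leaves other forms of the element unsearched. Of the members, 38 matched a RefSeq promoter by symbol, and 19 of them (50%) held the core on either strand in the 300 bases from 250 before to 50 after the start, against 3.99% of all 27025 genes. The GAS letters TTCNNNGAA occurred in 11 of the 38 (28.9%) against 9.55% of all genes. Among tested members with a matched promoter, the 13 that held the ISRE core had a median log2 fold change between topical cKO and topical control of 0.76 (0.026 to 2.60), and the 14 without it a median of 0.53 (-0.41 to 2.61). Both sets spanned nearly the same range, and the element is a description of the sequence, not of binding.

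To follow the members mouse by mouse, a score was taken as the mean over the 33 tested members of each gene's log2 CPM minus that gene's mean over all 20 mice. In topical controls the score was -0.41 in mouse 1, 0.016 in mouse 3, -0.50 in mouse 5, -0.28 in mouse 6 and -0.092 in mouse 7. In topical cKO mice it was -0.22 in mouse 2, 0.57 in mouse 3, 0.70 in mouse 4, -0.31 in mouse 5 and 1.595 in mouse 7. Mice 3, 4 and 7 of the topical cKO group were thus above every other mouse of the study (over members of at least 5 CPM alone, mouse 3 at 0.26 was below systemic control mouse 4 at 0.28), whereas mice 2 and 5 lay within the range of the topical controls.

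**Figure D1:**
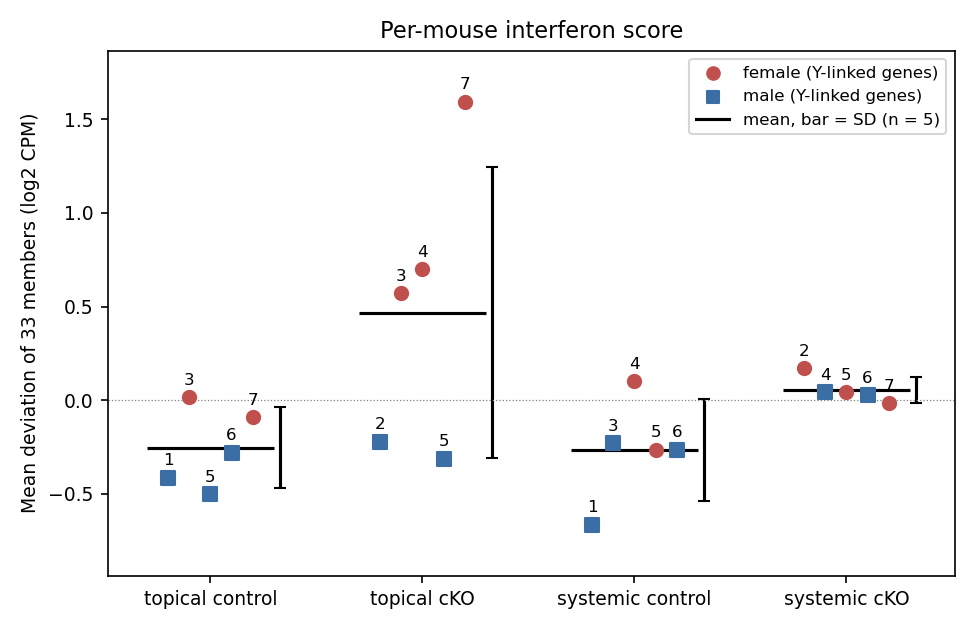
Score of the 33 tested interferon-stimulated genes (mean difference in log2 CPM from each gene's mean over 20 mice, vertical axis) in each mouse of the 4 groups, with the group mean as a line, its SD as a bar (n = 5) and sex by colour and shape. The topical cKO mice spread from -0.31 to 1.595, and the systemic cKO mice lie together between -0.016 and 0.17.

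In systemic controls the score was -0.67 in mouse 1, -0.23 in mouse 3, 0.10 in mouse 4 and -0.26 in mice 5 and 6. In systemic cKO mice it was 0.17 in mouse 2, 0.042 in mouse 4, 0.043 in mouse 5, 0.026 in mouse 6 and -0.016 in mouse 7. The systemic cKO mice were close to each other, and all 5 lay above systemic control mice 1, 3, 5 and 6. Systemic control mouse 4 was above 4 of them, though with a median over the members in place of the mean it was below mice 2, 4 and 6 (0.043 against 0.24, 0.086 and 0.13). By that median systemic cKO mouse 7 (-0.054) was also below systemic control mouse 3 (-0.043). The group means were -0.25 ± 0.22 (SD, n = 5) in topical controls, 0.47 ± 0.78 in topical cKO, -0.26 ± 0.27 in systemic controls and 0.053 ± 0.070 in systemic cKO mice. The mean over all 12424 genes, taken the same way, stayed between -0.071 and 0.067 in every mouse.

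The spread within the topical cKO group was wide for most members. Their median within-group SD of log2 CPM was 0.71 there against 0.31 for all genes tested, while in the topical controls it was 0.35 against 0.29, in the systemic controls 0.43 against 0.32 and in the systemic cKO mice 0.47 against 0.35. Topical cKO mouse 7 held the highest value of its group in 28 of the 33 members (84.8%), against 23.9% of all genes. The lowest value was in mouse 2 for 17 members (15.7% of all genes) and in mouse 5 for 15 (19.3%). Over all 20 mice, mouse 7 held the highest level of 25 of the 33 tested members (75.8%, against 8.31% of all genes) and of 14 of the 16 untested members.

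**Figure D2:**
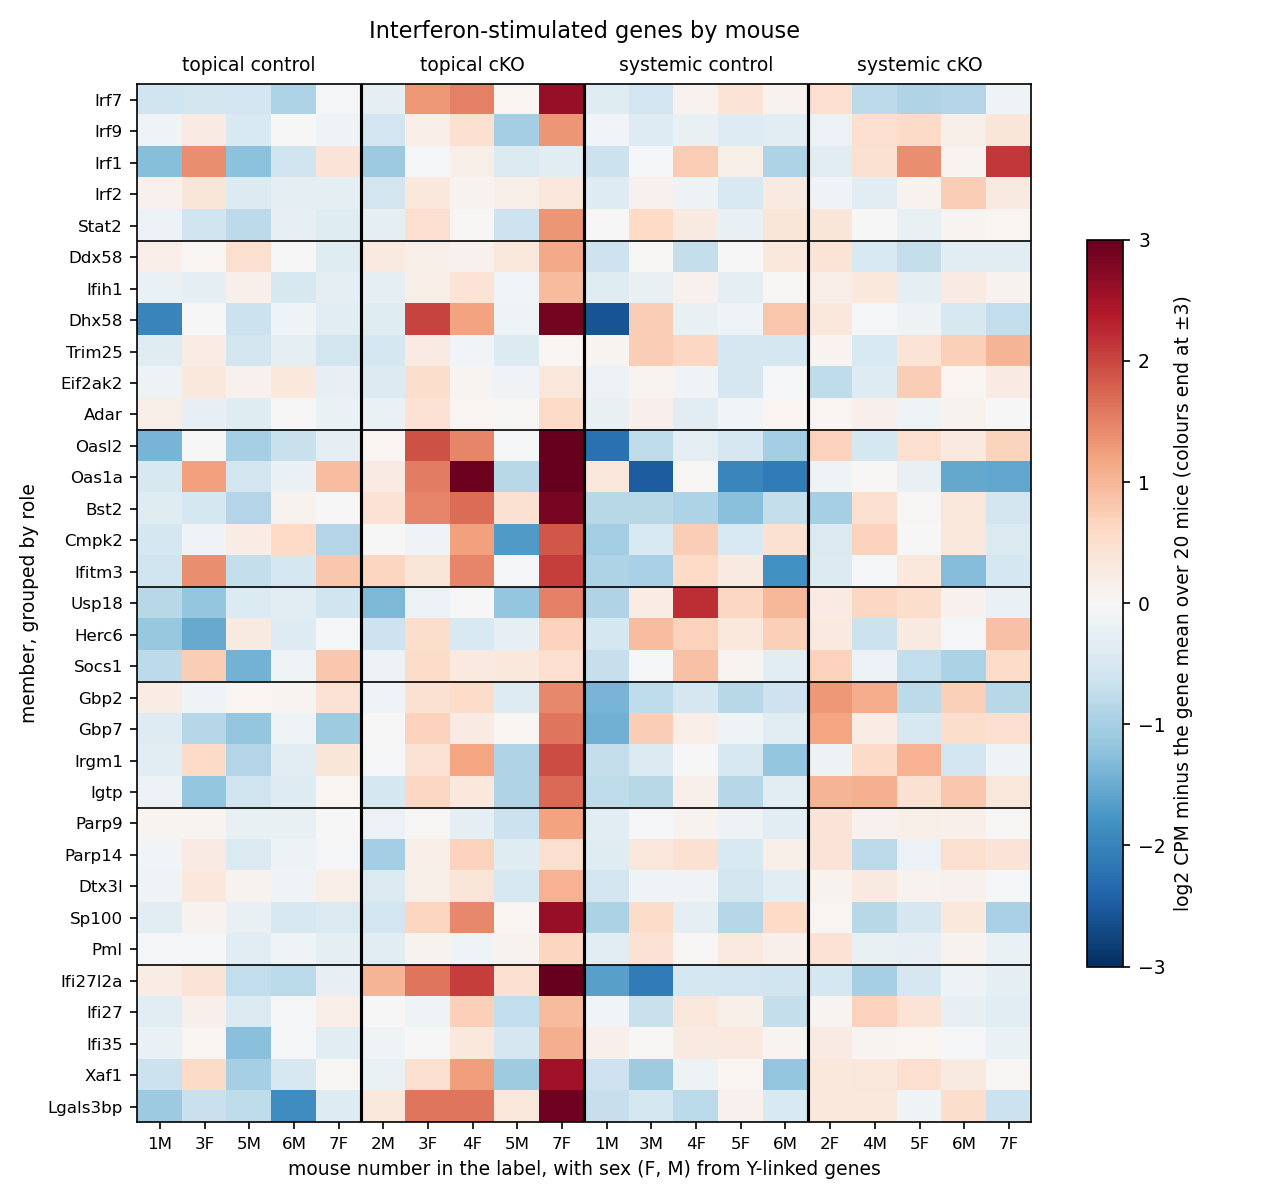
Difference in log2 CPM of each tested member (rows, grouped by role) from its mean over the 20 mice, for each mouse (columns, by group). Topical cKO mouse 7 is above the mean in 32 of 33 members, mice 3 and 4 in 29 and 28, and mice 2 and 5 in 7 and 11.

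The mice with high scores in the topical cKO group were its 3 females. Their mean score was 0.955 (0.57 to 1.595), against -0.27 (-0.31 to -0.22) in its 2 males. In the topical controls the 2 females averaged -0.038 and the 3 males -0.40, and again every female was above every male. The sexes overlapped in the systemic groups. Scores there were -0.26 to 0.10 in control females and -0.67 to -0.23 in control males. In systemic cKO mice they were -0.016 to 0.17 in females and 0.026 to 0.042 in males. All females exceeded all males of their group in 24 of 33 members in topical cKO mice (9.8% of all genes), 12 in topical controls (15.6%), 9 in systemic controls (11%) and 2 in systemic cKO mice (8.62%). All males exceeded all females in 0 members in topical cKO mice (11.8%), 0 in topical controls (14.8%), 1 in systemic controls (13.7%) and 6 in systemic cKO mice (8.64%).

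In topical cKO mice the female minus male difference was above 0 in 33 of 33 members (49.3% of all genes), with a median of 1.15. At an unadjusted p under 0.05, 24 members were higher in females (3.56% of all genes) and 0 lower (2.89%), and 0 passed after adjustment over all genes, where 0.0724% of all genes did. Compared within females, the topical cKO minus control difference had a median of 0.84 over the members and was above 0 in 31 of 33 (51.5% of all genes). Within males the median was 0.057 and 18 of 33 were above 0 (53.2% of all genes).

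Lgals3bp was the 1 member that passed between females (log2 fold change 2.77 ± 0.45 SE, edgeR adjusted p = 0.0264, 0.0402% of all genes called), and between males 0 passed (0% of all genes), with 2 higher (3.65%) and 1 lower (3.77%) at an unadjusted p under 0.05. Between females the same counts were 18 higher (1.45%) and 1 lower (0.571%). The difference between the female and the male effect was above 0 in 30 of 33 members (51.7% of all genes), with a median of 1.09. For this difference 0 members passed, as did 0% of all genes, and 12 members had the larger effect in females at an unadjusted p under 0.05 (1.56% of all genes) and 0 in males (1.6%). Each sex had 2 or 3 mice per group, so these values rest on few animals.

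With topical tamoxifen, keratinocytes of cKO mice held more RNA of several interferon-stimulated genes than those of controls. Lgals3bp, Ifi27l2a and Bst2 rose, and 0 members fell. These 3 of 33 members passed the test (edgeR quasi-likelihood, Benjamini-Hochberg adjusted p under 0.05), against 0.129% of all genes. The log2 fold change was above 0 in 32 of 33 members (54% of all genes), with a median of 0.54 against 0.020 over all genes and a range from -0.41 for Irf1 to 2.61 for Lgals3bp. Without topical cKO mouse 7 the median of the members was 0.23. At an unadjusted p under 0.05, 15 members were higher (3.26% of all genes) and 0 lower (2.4%).

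Lgals3bp (ENSMUSG00000033880) encodes a secreted glycoprotein that binds galectins. Its level was 0.807, 1.10, 1.02, 0.428 and 1.37 CPM in topical control mice 1, 3, 5, 6 and 7 and 2.27, 5.71, 5.69, 2.32 and 14.3 CPM in topical cKO mice 2, 3, 4, 5 and 7. All 5 cKO mice were above all 5 controls, and the group means were 6.06 ± 4.91 and 0.946 ± 0.352 CPM (SD, n = 5). The log2 fold change was 2.61 ± 0.43 (SE), with an adjusted p of 0.00672. This call held when any 1 of the 10 topical mice was left out, with adjusted p up to 0.0358.

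Ifi27l2a (ENSMUSG00000079017), a small interferon-induced membrane protein of the ISG12 family, had 3.88, 4.36, 1.98, 1.86 and 2.81 CPM in the topical controls and 6.89, 10.4, 14.3, 4.70 and 50.5 CPM in the topical cKO mice, in the same order. The groups did not overlap, and cKO mouse 7 stood far above the others of its group. Its log2 fold change was 2.51 ± 0.50, with an adjusted p of 0.0446.

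Bst2 (ENSMUSG00000046718) encodes tetherin, a membrane protein that holds budding virus on the cell surface. Its level was 1.01, 0.894, 0.683, 1.43 and 1.33 CPM in the controls and 1.84, 3.81, 4.46, 1.86 and 10.2 CPM in the cKO mice. The groups again did not overlap, with cKO mice 2 and 5 closest to the controls. On the log2 scale the difference was 2.00 ± 0.40, with an adjusted p of 0.0446. Without cKO mouse 7 the count of called members was 1 (Lgals3bp), and the log2 fold change was 1.45 ± 0.33 for Bst2 (adjusted p = 0.156) and 1.58 ± 0.34 for Ifi27l2a (adjusted p = 0.118). With sex as a covariate, adjusted p was 0.0102 for Lgals3bp, 0.0879 for Bst2 and 0.0594 for Ifi27l2a. Fitted on the 10 topical libraries alone, or with limma voom and sample weights, 0 members passed, and DESeq2 called 5. The share of all genes called by these other fits is not given here. The count was also 1 without any 1 of the 5 controls or cKO mouse 4, and 5 without cKO mouse 2 or 5. Groups that did not overlap were seen in 4 members (0.845% of all genes), namely these 3 and Gbp7.

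Among the antiviral effectors, 5 of 15 members were tested, all 5 had a log2 fold change above 0 and 1, Bst2, passed. Oasl2 (ENSMUSG00000029561), of the oligoadenylate synthetase-like proteins, had 0.656, 1.89, 0.887, 1.14 and 1.51 CPM in the topical controls and 1.96, 7.32, 5.38, 1.84 and 17.5 CPM in the topical cKO mice. Mouse 5 of the cKO group lay below control mouse 3, and the others were above all controls. Its log2 fold change of 2.42 ± 0.51 missed the threshold (adjusted p = 0.0687).

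Oas1a (ENSMUSG00000052776) encodes an oligoadenylate synthetase, an enzyme that activates RNase L on double-stranded RNA. Its level was 1.16, 4.0, 1.09, 1.43 and 3.25 CPM in the controls and 2.00, 4.96, 13.4, 0.893 and 48.2 CPM in the cKO mice. The groups overlapped, since cKO mice 2 and 5 were within or below the control range, and the log2 fold change of 2.60 ± 0.85 did not pass (adjusted p = 0.659). Ifitm3 (ENSMUSG00000025492), which restricts virus entry at membranes, was at 231, 919.8, 212, 241 and 609 CPM in the controls and 542, 446.5, 964, 333 and 1464 CPM in the cKO mice. Here control mouse 3 exceeded 3 of the 5 cKO mice, and the log2 fold change was 0.76 ± 0.49 (adjusted p = 0.968).

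The transcription factors that carry interferon signals into the nucleus (Irf7, Irf9, Irf1, Irf2 and Stat2) had a log2 fold change above 0 in 4 of 5, a median of 0.37 and 0 that passed. Irf7 (ENSMUSG00000025498), which amplifies type I interferon, had 1.01, 1.05, 1.02, 0.785 and 1.55 CPM in the topical controls and 1.29, 4.04, 4.69, 1.66 and 10.1 CPM in the topical cKO mice. The 3 female cKO mice exceeded all controls, mouse 5 did so narrowly and mouse 2 did not, and the log2 fold change was 1.94 ± 0.44 (adjusted p = 0.129). Irf1 (ENSMUSG00000018899), an early target of interferon gamma that many other stimuli also induce, had 64.3, 413.5, 66.4, 104 and 206 CPM in the controls and 73.1, 152, 177.5, 117 and 124 CPM in the cKO mice. The cKO values lay inside the control range, and the log2 fold change was -0.41 ± 0.49 (adjusted p = 0.997).

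The nucleic acid sensors and their regulators, which detect viral RNA or DNA, had a log2 fold change above 0 in 6 of 6 tested members, with 0 that passed and a range from 0.026 for Eif2ak2 to 2.30 for Dhx58. The 4 tested GTPases, which act on the vacuoles of intracellular pathogens, were all above 0 with 0 that passed, from 0.36 for Gbp2 to 1.41 for Gbp7. The 5 PARP and nuclear body proteins were above 0 as well, from 0.13 for Dtx3l to 1.69 for Sp100, and 0 passed. Of the ISG15 system and its feedback, 3 of 4 members were tested and all were above 0, from 0.22 for Socs1 to 0.75 for Usp18, with 0 that passed. The 5 tested members among the remaining induced proteins were above 0 from 0.35 for Ifi27 upwards, and Lgals3bp and Ifi27l2a were the 2 that passed.

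**Figure D3:**
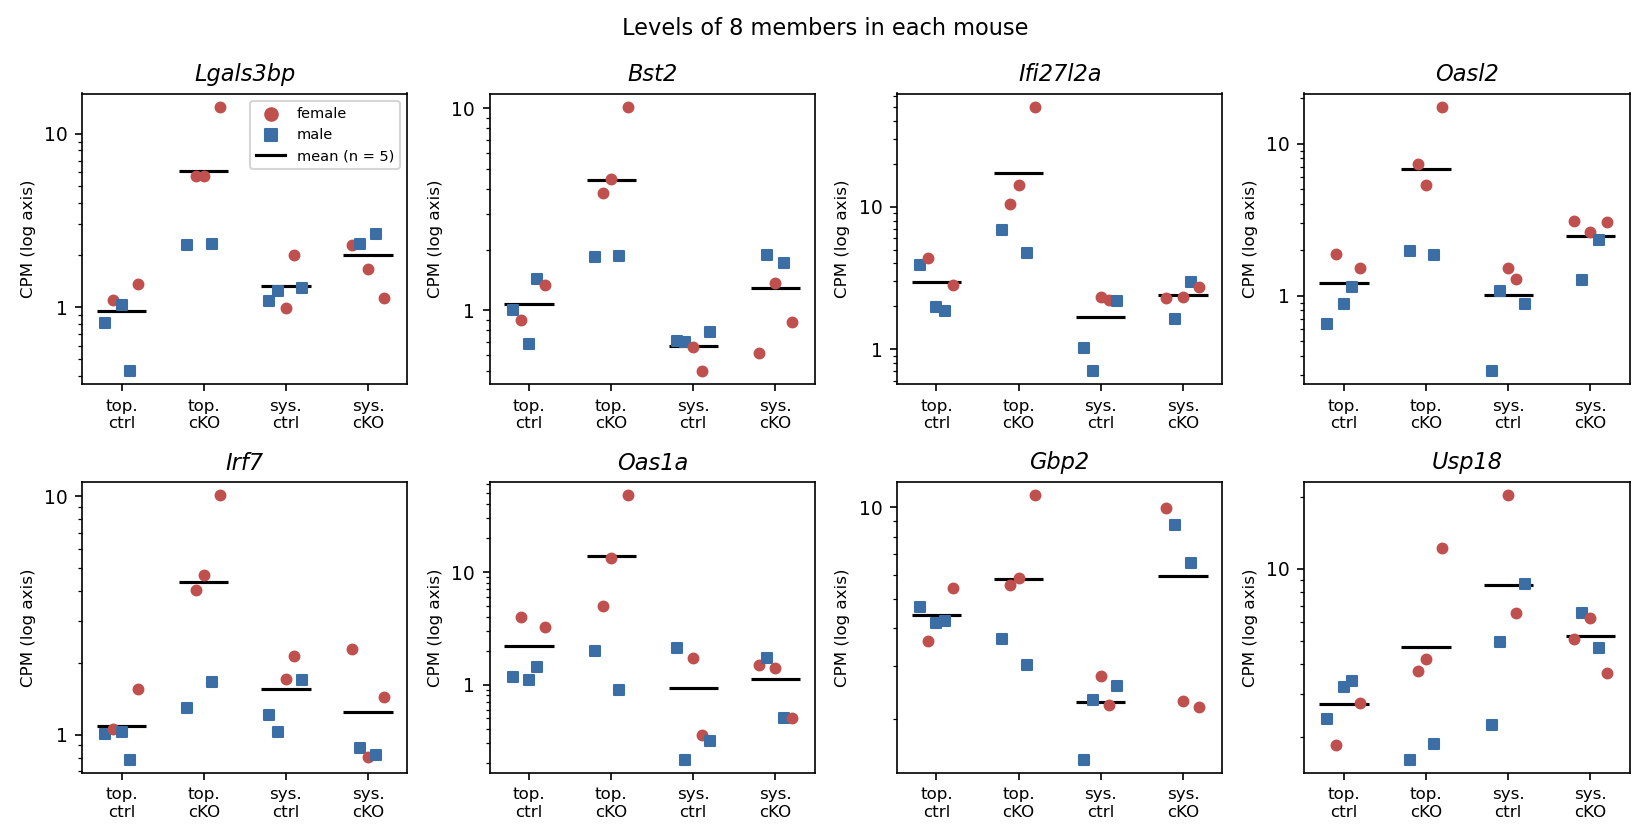
Levels of single members in each mouse (CPM, log axis), by group, with the group mean as a line and sex by colour and shape. In Lgals3bp, Bst2 and Ifi27l2a all 5 topical cKO mice are above all 5 topical controls, with topical cKO mouse 7 the highest of each.

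In 8 of the 16 untested members, topical cKO mouse 7 had more reads than the other mice of its group together. Isg15 (ENSMUSG00000035692), a ubiquitin-like protein joined to others after interferon, had 27 reads over the topical controls and 97 over the topical cKO mice, 62 of them in mouse 7. As levels these were 0.202, 0.368, 0.0683, 0.357 and 0.370 CPM in the controls and 0.313, 0.865, 0.231, 0.230 and 5.40 CPM in the cKO mice. In the systemic controls Isg15 was at 0, 0.215, 0.461, 0.214 and 0.121 CPM in mice 1, 3, 4, 5 and 6, and in the systemic cKO mice 2, 4, 5, 6 and 7 at 0.0881, 0.122, 0.211, 0.126 and 0.500 CPM. Apart from topical cKO mice 3 and 7, all 18 mice were thus at or below 0.500 CPM.

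Ifit1 (ENSMUSG00000034459), which binds viral RNA without the host's cap methylation, had 17 reads over the topical controls and 128 over the topical cKO mice, 75 of them in mouse 7. Its levels were 0.0504, 0.210, 0.273, 0.143 and 0.222 CPM in the controls and 0.352, 1.33, 0.769, 0.281 and 6.53 CPM in the cKO mice. Each of the 5 cKO mice was above each of the 5 controls, mice 2 and 5 by a small margin at this depth. The systemic controls had 0, 0.108, 0.0658, 0.0715 and 0.0729 CPM, and the systemic cKO mice 1.23, 0.0489, 0.105, 0.253 and 0.188 CPM, with mouse 2 the highest.

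Ifit3 (ENSMUSG00000074896) had at most 3 reads in any library. Its reads were 0, 0, 1, 0 and 0 in the topical controls, 2, 2, 0, 1 and 3 in the topical cKO mice, 0, 0, 0, 1 and 3 in the systemic controls and 0, 1, 0, 0 and 0 in the systemic cKO mice. No difference was detectable at this depth. Of the others, Rsad2 had 15 reads over the topical controls and 83 over the topical cKO mice (51 in mouse 7), Rtp4 11 and 75 (37 in mouse 7), Zbp1 4 and 45 (26 in mouse 7) and Ifi44 6 and 42 (25 in mouse 7). These sums differ with library depth and with 1 mouse, and 5 of the 16 untested members averaged below 0.1 CPM.

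With intraperitoneal tamoxifen, 0 of 33 members passed between cKO and control (edgeR), against 1.89% of all genes. At an unadjusted p under 0.05, 5 members were higher (8.27% of all genes) and 0 lower (7.08%). DESeq2 called 2 members, and edgeR with mitochondrial percentage as a covariate 3. The share of all genes called in these 2 fits is not given here. The log2 fold change was above 0 in 23 of 33 members (49.5% of all genes), with a median of 0.26 against -0.0045 over all genes. The members with the largest values were the GTPase Gbp2, then Oasl2 and the GTPase Igtp at nearly the same value, and Irf1.

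Gbp2 (ENSMUSG00000028270), a guanylate-binding protein that interferon gamma induces, had 1.47, 2.32, 2.77, 2.22 and 2.58 CPM in systemic control mice 1, 3, 4, 5 and 6 and 9.95, 8.73, 2.28, 6.58 and 2.19 CPM in systemic cKO mice 2, 4, 5, 6 and 7. Mice 2, 4 and 6 exceeded all controls, and mice 5 and 7 were among them. Its log2 fold change was 1.37 ± 0.38 (adjusted p = 0.0676). In the topical groups Gbp2 was at 4.69, 3.63, 4.16, 4.21 and 5.43 CPM in the controls and 3.68, 5.53, 5.85, 3.01 and 10.98 CPM in the cKO mice, which overlapped.

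Igtp (ENSMUSG00000078853), an immunity-related GTPase, had 1.53, 1.46, 2.96, 1.43 and 2.11 CPM in the systemic controls and 5.46, 5.70, 3.69, 4.74 and 3.38 CPM in the systemic cKO mice. All cKO mice were above all controls, yet the log2 fold change of 1.27 ± 0.38 missed the threshold (adjusted p = 0.0887). Groups that did not overlap occurred in 2 members, Igtp and Dtx3l, both higher in cKO mice (1.02% of all genes), and in 0 that were lower (0.918%). All 4 tested GTPases were above 0 in both routes, with medians of 0.87 in the topical and 1.05 in the systemic comparison and 0 that passed in either. The untested GTPase Ifi47 had 11 reads over the systemic controls and 81 over the systemic cKO mice, with 28 and 32 in the topical groups.

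Irf1 was at 99.9, 152.5, 266, 176 and 82.0 CPM in the systemic controls and 125, 215, 413, 166 and 681 CPM in the systemic cKO mice. The cKO mice 5 and 7 were above all controls and the other 3 among them, and the log2 fold change of 1.05 ± 0.50 did not pass (adjusted p = 0.317). The members called with topical deletion did not pass here. Lgals3bp had 1.08, 1.24, 0.988, 2.00 and 1.29 CPM in the systemic controls and 2.29, 2.30, 1.65, 2.66 and 1.12 CPM in the systemic cKO mice, and its log2 fold change was 0.605 ± 0.43 (adjusted p = 0.544). Bst2 had 0.702, 0.700, 0.658, 0.500 and 0.778 CPM and 0.617, 1.88, 1.37, 1.71 and 0.875 CPM (log2 fold change 0.97 ± 0.43, adjusted p = 0.276), with 4 cKO mice above all controls and mouse 2 below 4 of them.

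Oasl2 was at 0.319, 1.08, 1.51, 1.29 and 0.875 CPM in the systemic controls and 3.08, 1.27, 2.63, 2.34 and 3.06 CPM in the systemic cKO mice. Of the cKO mice 4 were above all controls, and the log2 fold change was 1.28 ± 0.53 (adjusted p = 0.239). Irf7 had 1.21, 1.02, 1.71, 2.15 and 1.70 CPM in the systemic controls and 2.29, 0.880, 0.808, 0.822 and 1.44 CPM in the systemic cKO mice. Here 3 cKO mice were below all controls and mouse 2 above them, with a log2 fold change of -0.38 ± 0.45 (adjusted p = 0.757).

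By role, the systemic medians were 0.26 for the transcription factors, 0.16 for the sensors, 0.40 for the antiviral effectors, -0.35 for the ISG15 system and its feedback, 0.012 for the PARP and nuclear body proteins and 0.48 for the remaining induced proteins. Usp18 had the lowest value of the 33, at -0.69 ± 0.48 (adjusted p = 0.542). Fitted within each sex, the systemic median was 0.16 in females, with 24 of 33 members above 0 (51.8% of all genes), and 0.46 in males, with 22 above 0 (50%).

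**Figure D4:**
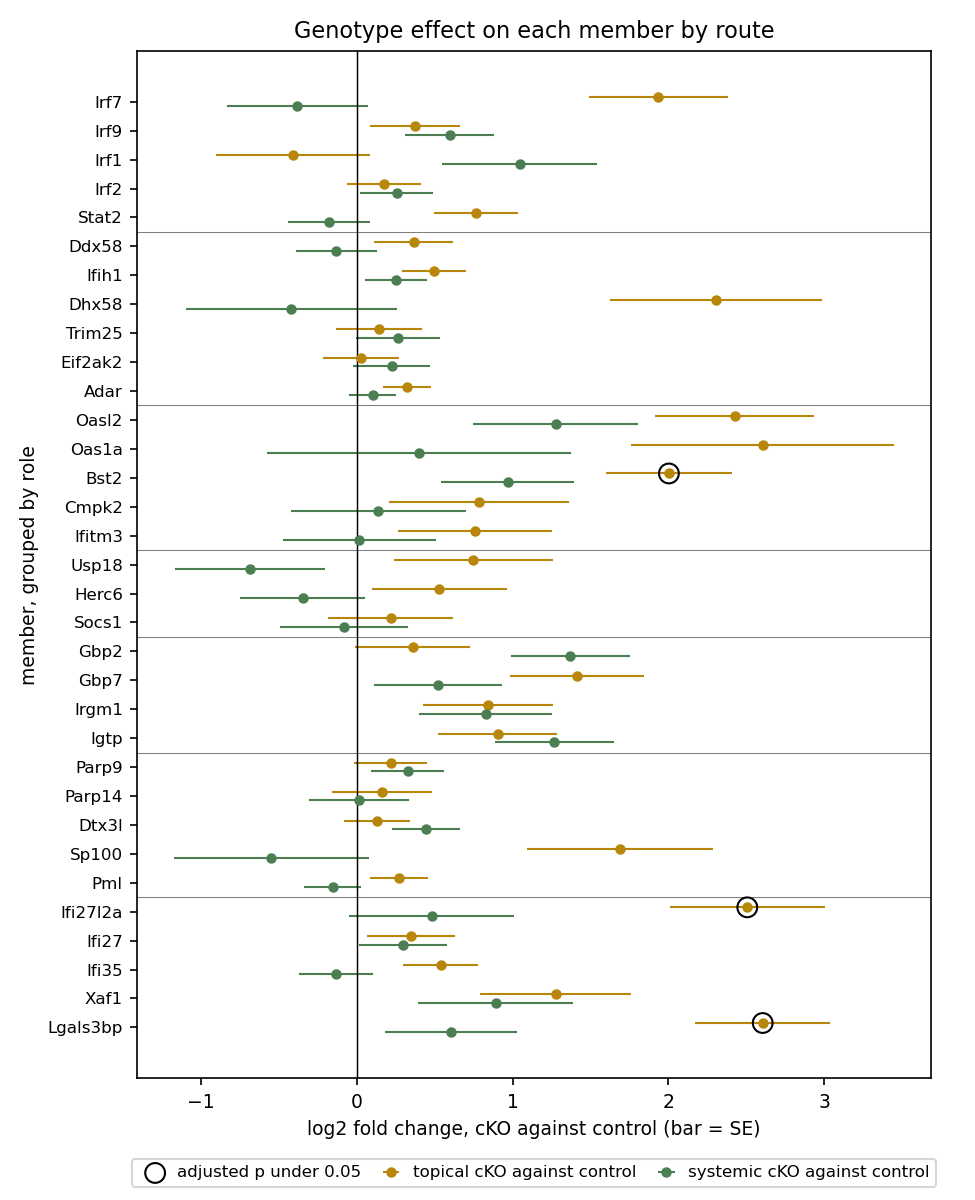
Log2 fold change of cKO against control (horizontal axis) for each tested member (vertical axis, grouped by role), with the topical comparison in ochre, the systemic in green, standard errors as bars and circles around values with an adjusted p under 0.05. The topical values run from -0.41 to 2.61 and the systemic values from -0.69 to 1.37.

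The difference between the systemic and the topical genotype effect was tested directly, and 0 of 33 members passed (0.25% of all genes). At an unadjusted p under 0.05, 6 members were lower (6.81% of all genes) and 1 higher (7.19%). DESeq2 called 2, both lower, and its share of all genes is not given here. The difference was above 0 in 9 of 33 members (47.2% of all genes), with a median of -0.43 against -0.028 and a range from -2.72 for Dhx58 to 1.46 for Irf1. Irf7 came closest, at -2.32 ± 0.63 (adjusted p = 0.0956). A difference of the genotype effect between the routes was therefore not established for any single member, and the 2 contrasts of genotype share no mice.

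Averaged over both routes, Lgals3bp, Bst2 and Oasl2 rose in cKO mice, 3 of 33 members against 0.306% of all genes, and 0 fell (0.00805%). At an unadjusted p under 0.05, 13 members were higher (4.38% of all genes) and 0 lower (3.28%). The log2 fold change was 1.605 ± 0.30 for Lgals3bp (adjusted p = 0.0161), 1.485 ± 0.29 for Bst2 (adjusted p = 0.0194) and 1.85 ± 0.37 for Oasl2 (adjusted p = 0.0206). Oasl2 no longer passed without topical control mouse 1 (adjusted p = 0.0515) or 5 (adjusted p = 0.0517), and 5 members passed without topical cKO mouse 5. All 33 members were above 0 (52.9% of all genes), from 0.031 for Usp18 to 1.85 for Oasl2, with a median of 0.37. Each cKO group had 3 females and 2 males and each control group 2 females and 3 males. Sex was thus not balanced between the genotypes in this average, and its part in these values was not tested. With satellite-like transcripts as a covariate 0 members passed. With their log2 level the values were 1.64 for Lgals3bp (adjusted p = 0.0653), 1.26 for Bst2 (adjusted p = 0.374) and 2.00 for Oasl2 (adjusted p = 0.0589), and with libraries split at 50 CPM they were 1.70 (adjusted p = 0.416), 0.93 (adjusted p = 0.999) and 2.02 (adjusted p = 0.395).

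Among cKO mice, 5 of 33 members passed between routes (9.22% of all genes). These 5 were lower after systemic than after topical tamoxifen (4.02% of all genes) and 0 higher (5.19%). Ifi27l2a fell by 2.85 ± 0.51 on the log2 scale (adjusted p = 0.00103) and was the 1 member with all systemic mice below all topical mice (3.32% of all genes), while 0 had them all above (4.07%). Its levels were 2.29, 1.64, 2.32, 2.97 and 2.75 CPM in systemic cKO mice 2, 4, 5, 6 and 7, below each of the topical cKO mice given above. The log2 difference was -1.69 ± 0.39 for Bst2 (adjusted p = 0.00771), -1.82 ± 0.44 for Irf7 (adjusted p = 0.0110), -1.56 ± 0.40 for Lgals3bp (adjusted p = 0.0169) and -3.54 ± 0.90 for Oas1a (adjusted p = 0.0174). Oas1a was at 1.5, 1.71, 1.41, 0.506 and 0.500 CPM in the systemic cKO mice, levels that overlapped the topical cKO range through topical mouse 5. Without topical cKO mouse 2 or 5, 8 members were called. Without topical cKO mouse 7, 3 members were called, and Lgals3bp (-0.97 ± 0.33, adjusted p = 0.0770) and Oas1a (-2.15 ± 0.70, adjusted p = 0.0638) no longer passed. The median over all 33 was -0.17, and 0.059 without that mouse.

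Among controls, Usp18 was higher with systemic tamoxifen, 1 of 33 members against 10.2% of all genes, and 0 were lower (8.16%). Usp18 (ENSMUSG00000030107) removes ISG15 from proteins and restrains the type I receptor. Its level was 2.37, 1.84, 3.21, 3.43 and 2.77 CPM in the topical controls and 2.23, 4.96, 20.3, 6.58 and 8.65 CPM in the systemic controls. Mouse 1 of the systemic controls was inside the topical range and mouse 4 far above the others. On the log2 scale the difference was 1.65 ± 0.50 (adjusted p = 0.0266), and it was 1.06 (adjusted p = 0.119) without mouse 4. The call was also lost without topical control mouse 1, 3 or 7. With the log2 satellite-like level as a covariate the adjusted p was 0.442, and with libraries split at 50 CPM it was 0.945. Over the 10 alternatives that left out no mouse of this comparison, these covariates included, the log2 difference was between 1.36 and 1.72. All 5 systemic controls and none of the topical controls had high levels of satellite-like transcripts. All systemic controls were below all topical controls in 2 members, Gbp2 (log2 difference -0.96 ± 0.39, adjusted p = 0.0853) and Dtx3l (6.26% of all genes), and above them in 0 (7.54%). In the cKO mice Usp18 was at 1.61, 3.75, 4.23, 1.86 and 12.3 CPM after topical and 5.11, 6.58, 6.22, 4.68 and 3.69 CPM after systemic tamoxifen, and it did not pass in that comparison (adjusted p = 0.834).

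The other members with values for every mouse were Oas1a and Ifitm3 in systemic controls and Ifitm3 in systemic cKO mice. Oas1a was at 2.11, 0.215, 1.71, 0.357 and 0.316 CPM in the systemic controls, and its systemic genotype effect was 0.40 ± 0.98 (adjusted p = 0.900). Ifitm3 was at 182, 177, 530.6, 418 and 98.4 CPM in the systemic controls and 263, 337, 436, 142 and 243 CPM in the systemic cKO mice, which overlapped throughout (log2 fold change 0.016 ± 0.49, adjusted p = 0.991). Ifi27l2a in the systemic controls was at 1.02, 0.700, 2.30, 2.22 and 2.16 CPM, partly below the systemic cKO values (log2 fold change 0.48 ± 0.53, adjusted p = 0.733).

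Upstream of these genes, the 9 listed interferon ligands were all below the filter. Ifnb1, Ifne, Ifng, Ifna1 and Ifna4 had 0 reads in every library, Ifnl2, Ifnl3 and Ifna2 at most 1, and Ifnk, the interferon of keratinocytes, at most 10. All 6 receptor chains were tested, and 0 passed between genotypes by either route. Ifnar1 averaged 18.8 ± 3.29 CPM in topical controls, 22.1 ± 2.39 in topical cKO, 21.3 ± 2.39 in systemic controls and 20.6 ± 2.01 in systemic cKO mice. Ifnar2, the other chain of the type I receptor, fell from topical to systemic tamoxifen by 0.74 ± 0.16 on the log2 scale in controls (adjusted p = 0.00380, where 8.16% of all genes were called lower) and by 0.69 ± 0.16 in cKO mice (adjusted p = 0.00771, where 4.02% were). The receptors of interferon gamma (Ifngr1 and Ifngr2) and of type III interferon (Ifnlr1 and Il10rb) did not pass in any of the 6 comparisons (0.129% to 18.3% of all genes).

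Of the 14 signal transducers, 13 were tested. With topical tamoxifen 0 passed between genotypes (0.129% of all genes), and with systemic tamoxifen 1 did (1.89%), Irf3, which fell by 0.56 ± 0.14 on the log2 scale (adjusted p = 0.0413, 0.531% of all genes lower). IRF3 starts interferon transcription after nucleic acid is sensed, and its mean was 40.3 ± 1.93 CPM in systemic controls and 27.4 ± 4.70 CPM in systemic cKO mice. Topical controls were at 20.6 ± 4.10 CPM and topical cKO mice at 21.6 ± 1.665 CPM. Irf3 was thus higher by 0.97 ± 0.14 in systemic than in topical controls (edgeR adjusted p = 1.44e-04). Every systemic control also had high satellite-like levels, and the part of these in the calls of the transducers was not tested. In this comparison of controls 3 of the 13 transducers were called higher, against 10.2% of all genes, and the other 2 were the kinases Tyk2 (0.60 ± 0.17, adjusted p = 0.0174) and Ikbke (0.66 ± 0.17, adjusted p = 0.00891). Between routes in cKO mice 1 of 13 was called higher, Jak1 (0.57 ± 0.14, adjusted p = 0.0132), against 5.19% of all genes.

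A further list of 7 genes, most of which restrain the response, held Ptpn2, Ptpn6, Socs3, Pias1, Isg20, Trex1 and Samhd1. All were tested, and 0 passed in any of the 6 comparisons, in which 0.129% to 18.3% of all genes were called.

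Markers of cells that could carry interferon transcripts were also summed. Epidermal immune markers were at 3.57 to 7.26 CPM in topical controls and 3.44 to 8.25 CPM in topical cKO mice, and 4.51 to 9.06 and 4.15 to 6.76 CPM in the systemic groups, with 0 of the 3 tested called between genotypes. Plasmacytoid dendritic cell markers (5 genes, 1 tested) were at 1.76 to 5.02 CPM in topical controls and 2.00 to 3.41 CPM in topical cKO mice, with Siglech at 0 in all 5 topical cKO mice. Fibroblast markers (6 genes, 4 tested) were at 1.45 to 9.88 CPM in topical controls and 3.17 to 32.0 CPM in topical cKO mice, where the 3.17 CPM belonged to mouse 7. All 4 tested fibroblast markers were higher in topical cKO mice, by 1.35 at the median on the log2 scale, and 0 passed. On the unscaled total, topical cKO mouse 7, with the highest score, also had the lowest immune and plasmacytoid marker sums of its group (3.44 and 2.00 CPM). Scaling factors in that group ran from 0.780 in mouse 4 to 1.314 in mouse 5, so the order of these and the fibroblast sums can differ after scaling. Most of the immune and plasmacytoid sums came from Csf1r and Ccr9, at topical cKO means of 3.97 and 2.36 CPM. Endothelial markers (5 genes, 4 tested) were at 1.36 to 5.41 and 2.28 to 10.7 CPM, and melanocyte markers (5 genes, 3 tested) at 4.13 to 12.5 and 4.74 to 10.1 CPM. None of these marker genes was called between genotypes in the topical comparison. Between routes in cKO mice 1 endothelial marker was called lower (4.02% of all genes) and 1 plasmacytoid marker higher (5.19%). In controls 1 melanocyte marker was called higher after systemic tamoxifen (10.2% of all genes). The part of these markers in the members' differences was not tested.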

How the data were processed

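The authors deposited 1 table of raw counts, whole-number reads per gene for 25719 mouse genes in 20 libraries, with no normalization. STAR, featureCounts and the builds GRCm38 and mm10 are named per the submitters' processing notes, and the versions, the strand setting and the treatment of reads that fit several genes are not given in the sources used here. Every column matched 1 sample title.

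A single model over all libraries was fitted with edgeR 4.0.16 (R 4.3.3, TMM, filterByExpr at a minimum count of 10 and a minimum total of 15, robust quasi-likelihood F tests, two-sided, 1 coefficient per group). Benjamini-Hochberg adjustment covered the 12424 genes tested, with calls at an adjusted p under 0.05. CPM are counts scaled to the TMM-adjusted library total, and marker and satellite-like sums use the unscaled total. Log2 CPM used a prior count of 2. Errors are SDs over 5 mice, or for log2 fold changes a standard error (SE), taken as the fold change divided by the square root of F. PCR reads without molecular identifiers are not independent molecules, so read sums carry at least counting error.

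The members, role groups, pathway and marker lists were chosen with earlier results of these data known, so that no list was tested. Values in every mouse are given for each called member and for Isg15, Irf7, Ifit1, Ifit3, Oasl2, Irf1, Gbp2 and Ifitm3, and of the rest the extremes of each role group. Igtp, Gbp7, Dtx3l, Irf9 and the untested genes with read sums were named after their values were seen. Sex was read from Y-linked genes, over 5 CPM for males. In simulated data for the topical comparison, 182 of 200 genes changed by a log2 of 1.5 were called among 12424 genes, with 5 unchanged ones.

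Alternatives were DESeq2 1.42.0 (size factors, Wald test), limma 3.58.1 (voom with sample weights), no filter, only the libraries compared, a replicate block, sex as a covariate and leaving out each library. Satellite-like level (12 genes, over 50 CPM or as log2), mitochondrial percentage and coefficients for each sex were added after the data were seen.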

Additional observations from a re-analysis of the deposited data

Results flagged for a closer look

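For the score and 13 named members, each group of 5 mice was checked for a mouse that stood apart, meaning a gap to the nearest other mouse above 0.71 of the whole range of the group. Of 56 such groups 9 had one. The limit flags about 1 in 20 by chance for normally distributed values, while these were mostly unlogged CPM, some from few reads. Several members were also included because they were called in these data, and members measured in the same mouse are not independent. The count of 9 is therefore a description and is not set against that rate. Topical cKO mouse 7 was the one in 6 of the 9. Its levels were 50.5 CPM of Ifi27l2a with the next mouse at 14.3, 48.2 CPM of Oas1a with the next at 13.4 and 14.3 CPM of Lgals3bp with the next at 5.71. It also had 12.3 CPM of Usp18 with the next at 4.23, 6.53 CPM of Ifit1 with the next at 1.33 and 5.40 CPM of Isg15 with the next at 0.865. The score itself did not meet the limit in any group.

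Systemic cKO mouse 2 had 1.23 CPM of Ifit1 with the next mouse at 0.253. For Ifit3, topical control mouse 5 at 0.0683 CPM and systemic cKO mouse 4 at 0.0244 CPM stood apart because all others of their groups were at 0, and each of these values is 1 read.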

How the results depend on the processing

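The counts of called members in this section have no share of all genes called under the same setting beside them. A change in such a count therefore does not show whether it was particular to the members. By DESeq2's Wald test the counts were 5 for topical cKO against control (3 in edgeR), 2 for systemic cKO against control (0), 2 for the difference between routes (0), 5 for the average over routes (3) and 9 for systemic against topical cKO (5). With limma voom weights they were 0 for the topical comparison, 0 for the average, 3 for systemic against topical controls (1) and 2 for systemic against topical cKO. From only the libraries compared they were 0 for the topical comparison, 3 for the controls and 1 for the cKO mice between routes. Without a filter, 0 were called between the controls, and with sex as a covariate 8 between the cKO mice. Satellite-like transcripts as a covariate, in either form, gave 0 for the average and 0 for the controls, and mitochondrial percentage gave 3 for systemic cKO against control and 6 for the average. By sex, the topical count was 1 in females and 0 in males, and the systemic median was 0.46 in males against 0.26.

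Leaving out 1 library at a time, counts ran from 1 to 5 for the topical comparison, 0 to 1 for the systemic one, 0 to 1 for the difference between routes (1 without systemic cKO mouse 2), 2 to 5 for the average, 0 to 2 for the controls and 3 to 8 for the cKO mice. In the systemic comparison 1 member was called without systemic cKO mouse 5 or 7, and between the controls 2 were without topical control mouse 5 or systemic control mouse 1. The topical median ran from 0.23 without topical cKO mouse 7 to 0.70 without topical cKO mouse 2, the systemic one from 0.20 to 0.39, that of the difference from -0.55 to -0.25 and that of the average from 0.19 to 0.46. The range of the score within systemic cKO mice was 0.19, and 0.30 as a median over members or 0.27 over members of at least 5 CPM. The cause of these shifts was not tested.

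Whether shared replicate numbers paired the mice was not established. Same-numbered topical mice correlated in their deviations from the group means at r = -0.14, 0.34 and 0.27 and systemic ones at -0.018, 0.17 and 0.24. Mice of different numbers were not correlated for comparison. With the number as a replicate block the counts were 1 for the topical comparison (Bst2, adjusted p = 0.0299), 1 for the average, 2 for the controls and 4 for the cKO mice. Depth limits the 16 untested members, of which 8 had 3 or more reads in at least 10 libraries.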

Other observations

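The role groups did not rank the mice alike. In topical cKO mouse 7 the mean deviation of the antiviral effectors was 2.94 on the log2 scale, that of the remaining induced proteins 2.27, that of the GTPases 1.675 and that of the ISG15 system 0.90. In systemic cKO mice 2 and 4 the GTPases stood at 0.84 and 0.75, while their antiviral effectors were at -0.26 and 0.13. In systemic cKO mice 5, 6 and 7 the GTPases were at 0.057, 0.37 and -0.030, and all 5 mice of that group lay above the 5 systemic controls, which ran from -1.07 to -0.045. In systemic control mouse 4 the ISG15 system and its feedback was at 1.27, the highest of the 20 mice, with the GTPases at -0.045. These are values of single mice and were not compared by a test.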
